A study of Urocitellus parryii with 3 samples.

Results

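The clustered miRNAs miR-191 (mmu-miR-191 on the array) and miR-425 (mmu-miR-425) were examined in livers of Urocitellus parryii, the arctic ground squirrel, a rodent that hibernates. They are 2 of the 577 miRNA entries on a microarray of mouse miRNA probes, and they were found by their names among the spots that are not controls, with 20 spots each per array. Livers were taken at 3 stages: late torpor, the cold and metabolically depressed phase of hibernation, early arousal, in which the animal starts to warm up, and post-reproduction, in the active season. Per the protocol, equal amounts of total RNA from the animals of a stage were mixed into 1 pool, of which 100 ng was labelled with Cy3 and put on 1 array. The protocol and the molecule label say total RNA, while the sample descriptions name RNA of 18 to 30 nucleotides, so which of these the input amount refers to is not settled. The labels name no further treatment, sex or age, and how many animals went into a pool is not stated there. With 1 pool and 1 array per stage there is no spread between animals, so no comparison below has a test, and the stage cannot be told apart from the pool or the position on the slide. An SD or standard error (SE) below comes from repeated spots of a probe and covers spot spread only.

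miR-191 and miR-425 are cut from neighbouring hairpins in an intron of Dalrd3, a gene for a protein with a tRNA-binding domain, and are thought to come from the same primary transcript. Drosha and Dicer trim each hairpin to a duplex, of which the mature strand is loaded into an Argonaute protein and the other, the passenger or star strand, is mostly degraded. miR-191 is found in nearly all tissues and is often used as a stable reference in miRNA assays; in erythroid cells it is known to restrain late maturation. miR-425 has been described as a repressor of the mRNA for natriuretic peptide A in the heart.

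The targets of the probes lie on mouse chromosome 9 (mm9 in the files). The miR-191 probes cover chr9:108470664-108470678 and the miR-191* probes, for its passenger strand, chr9:108470699-108470719. The miR-425 probes cover chr9:108471125-108471142 and those for miR-425* chr9:108471167-108471181, so that 446 bases separate the targets of both mature strands. In the squirrel's own gene table (RefSeq, assembly mUroPar1.hap1) Dalrd3 is present, with Wdr6 and Ndufaf3 as its nearest neighbours. Probe and squirrel miRNA sequences were not used here, so the match of the mouse probes to the squirrel miRNAs and the sharing of seeds were not examined.

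Of the 567 mouse miRNAs on the array 143 were detected in post-reproduction, 158 in late torpor and 152 in early arousal. Detection of a probe required the flag for well above background on more than 50% of the spots kept, and a miRNA with a probe detected on all 3 arrays is called measured; 135 mouse miRNAs were measured. All 6 hepatocyte miRNAs on the marker list, miR-122 among them, were measured, as were 3 of 3 red blood cell, 6 of 7 leukocyte, 4 of 4 endothelial and 4 of 5 mesenchymal miRNAs. The exceptions were miR-155 of the leukocyte list and miR-199a-3p of the mesenchymal list, which has no entry of that name on the array.

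miR-425 was measured and miR-191 was not. Every spot of miR-425 was well above background on each array (20 of 20), and 0 of 20 spots of miR-191 were so on any array. miR-425 lay lower in both hibernation stages than in post-reproduction: the scaled difference was 13.8% for late torpor and 20.9% for early arousal, on a scale that shifts with the way arrays are brought together, as given below.

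The values of miR-425 came from a pair of probes with 10 spots each. On the probe with an 18-base target the spots in late torpor ran from 60.8 to 75.2 intensity units with a median of 65.6. The same probe ran from 45.5 to 62.9 in early arousal, with a median of 57.1, and from 77.0 to 87.9 in post-reproduction, with a median of 84.9. The post-reproduction spots therefore lay above every spot of the other arrays, while the early arousal and late torpor spots overlapped, with 8 of 10 early arousal spots below all 9 kept late torpor spots.

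On the probe with a 17-base target the spots ran from 21.6 to 28.9 in late torpor (median 25.5) and from 21.7 to 26.7 in early arousal (median 23.98). In post-reproduction they ran from 30.9 to 38.1 (median 33.5). This probe gave the same picture for post-reproduction, whose spots were again above all others, but it did not set the hibernation stages apart: 0 of 10 early arousal spots lay below all late torpor spots. The means were 65.2 ± 3.0 (SD, n = 9 kept spots), 56.8 ± 4.9 (n = 10) and 84.0 ± 3.3 (n = 10) on the first probe for late torpor, early arousal and post-reproduction, and 25.2 ± 2.3, 24.5 ± 1.8 and 34.2 ± 2.4 (n = 10 each) on the second. The program's own total signal for the miRNA, made from all its spots, was 64.7, 57.8 and 84.5 in the same order. Spot spread was 3.97% to 9.11% of the mean.

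**Figure D1:**
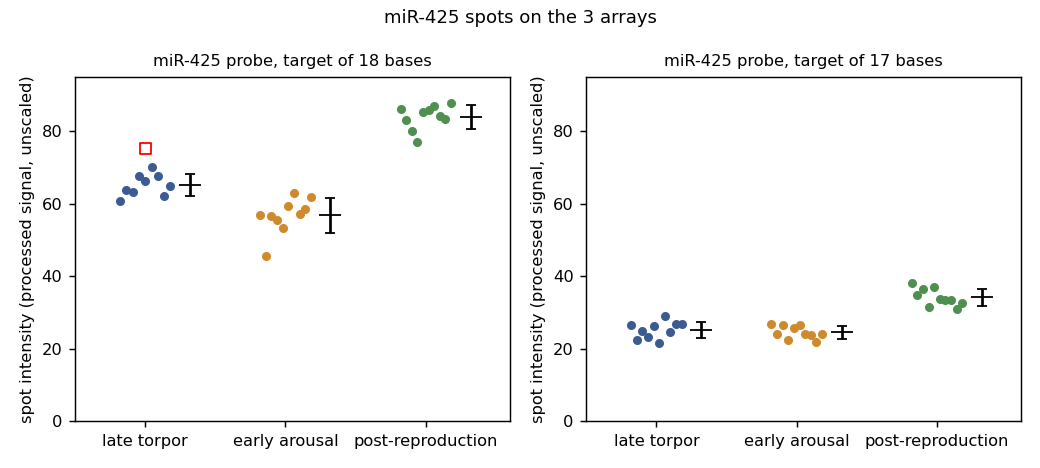
Intensity of each miR-425 spot (vertical axis, processed signal before scaling) on the late torpor, early arousal and post-reproduction arrays, for the probe with an 18-base target on the left and that with a 17-base target on the right. Dots are kept spots, the open red square is a spot flagged as an outlier, and the black bar is the mean with the SD of kept spots. All post-reproduction spots lie above those of the other arrays, with means of 84.0 and 34.2.

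Arrays were set on a common scale by subtracting, in log2 units, each array's own 75th percentile, taken over the 250 probes that were detected throughout. For post-reproduction this value was 398 intensity units, for early arousal 350.4 and for late torpor 349, so scaling alone brings post-reproduction down against the others. The scaled log2 level of miR-425 was -2.90 ± 0.02 (SE) in post-reproduction, -3.11 ± 0.02 in late torpor and -3.23 ± 0.03 in early arousal, each a mean over 2 probes.

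Late torpor was compared with post-reproduction to ask how hibernating liver differs from active liver. The log2 difference of miR-425 was -0.21 ± 0.03 (SE), that is 1.16-fold lower in late torpor (95% interval from spots 1.11 to 1.21). Its probes gave -0.18 ± 0.03 and -0.25 ± 0.05. After scaling, the spot ranges overlapped on both probes. The rule of size used throughout asks for 1 log2 unit or more (2-fold), beyond 2 SE, with all probes on 1 side of 0. miR-425 did not pass. The 3 of the 135 measured miRNAs that did (2.22%) were miR-144, miR-451 and miR-486, the red blood cell miRNAs treated below.

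Early arousal against post-reproduction asked the same of the rewarming animal. Here miR-425 had a log2 difference of -0.34 ± 0.03, or 1.26-fold lower in early arousal (95% interval 1.21 to 1.32). The probes gave -0.38 ± 0.05 and -0.29 ± 0.05, and the scaled spots of the arrays did not overlap on either probe. This too was short of the rule of size, which 5 of 135 miRNAs passed (3.7%). Both comparisons share the post-reproduction array, so they are not independent of each other.

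Within hibernation, early arousal against late torpor, the difference of miR-425 was -0.12 ± 0.04, or 1.09-fold lower in early arousal (1.04 to 1.14). The probes did not give the same size: it was -0.21 ± 0.05 on the probe with an 18-base target and -0.040 ± 0.05 on the other, which lies within 1 SE of 0. The rule of size was passed by 4 of 135 miRNAs (2.96%) and not by miR-425. The sign turned with the scaling: the difference was 0.085 with the 75th percentile of all probes and 0.028 with the median of detected probes. No order of the hibernation stages is given.

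The size of the differences from post-reproduction depended on the scaling as well. All were below 0 under the 12 alternatives run, though 1 could not be told from 0. The late torpor difference ranged from -0.61 with all probes in the scaling to -0.0014 ± 0.02 (SE) with the normexp background correction, which is within its SE of 0, and the early arousal difference from -0.60 with strict detection to -0.078 with normexp. normexp adds 50 units to every spot before logs are taken, which is close to the signal of miR-425 itself; with that offset taken off again, an alternative chosen after seeing the data, the values were -0.12 and -0.27.

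A position among the other miRNAs on the same arrays does not move with a shift of a whole array. In late torpor against post-reproduction, 21 of the 135 measured miRNAs had a lower difference than miR-425 and 113 a higher one, and the median of all was 0.13, which is 0.35 above miR-425. In early arousal against post-reproduction, 22 were lower and 112 higher, with a median of 0.062, 0.40 above miR-425. In early arousal against late torpor miR-425 stood near the middle, with 63 lower and 71 higher and a median of -0.094. Across the alternatives the number with a lower difference ran from 20 to 27 in the first comparison, from 19 to 30 in the second and from 49 to 68 in the third.

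**Figure D2:**
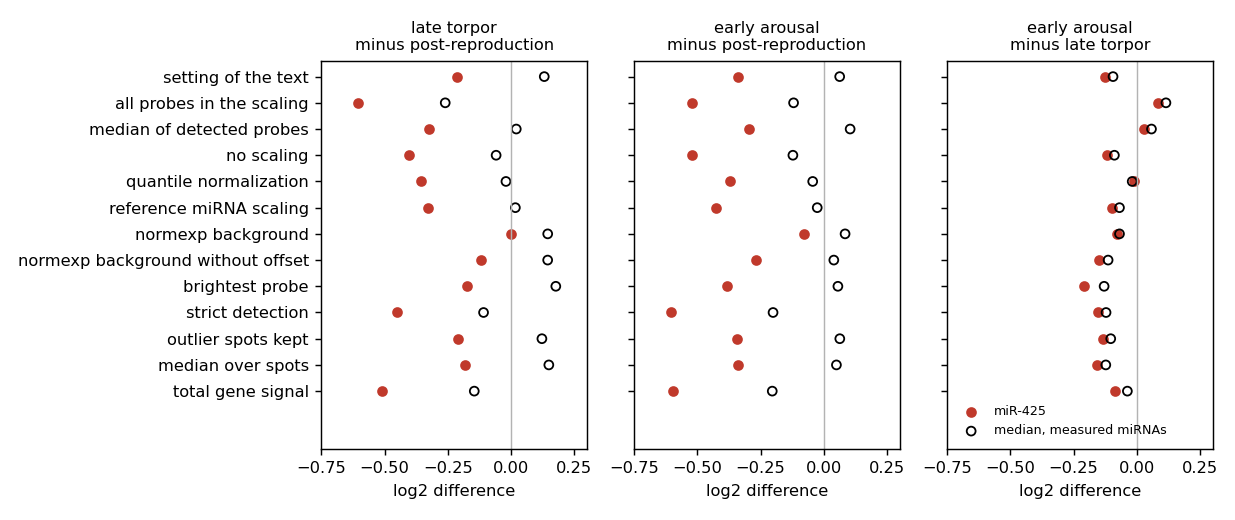
Log2 difference (horizontal axis) of miR-425 (red) and the median of the measured miRNAs (open circles) under the setting of the text and each of 12 alternatives (rows). In both comparisons with post-reproduction the red point is left of the open circle in every row; in early arousal minus late torpor both lie close together and cross 0.

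Because miR-191 is widely used as a reference, 8 other miRNAs used in that way were set beside miR-425: miR-103, miR-107, miR-16, miR-24, miR-25, miR-93, miR-26b and miR-423-5p. All 8 were measured and none passed the rule of size. In late torpor against post-reproduction 5 of the 8 were lower and 3 higher, with a median of -0.081. miR-16 (0.58), miR-25 (0.48) and miR-93 (0.43) were the 3 on the upper side, and miR-423-5p was the lowest at -0.17 ± 0.05. All 8 had higher values than miR-425, although the gap to miR-423-5p, -0.040 ± 0.06, was within its SE.

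In early arousal against post-reproduction 3 of the 8 were lower and 5 higher, with a median of 0.16. miR-103, an intronic miRNA linked to insulin signalling, was the lowest at -0.32 ± 0.03. All 8 again lay above miR-425, with a gap to miR-103 of -0.017 ± 0.04 that was within its SE. In early arousal against late torpor 4 of the 8 lay above miR-425 and the list ran from -0.24 for miR-93 to 0.41 for miR-26b. Scaled on the mean of these 8, the differences of miR-425 were -0.33 in late torpor and -0.43 in early arousal against post-reproduction, and -0.099 between the hibernation stages.

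Marker miRNAs of other cell types also differed between these arrays. All sums given here are of intensities before scaling. The 3 red blood cell miRNAs (miR-144, miR-451 and miR-486) had a summed mean intensity of 3223 in late torpor, 1954 in early arousal and 1549 in post-reproduction. After scaling all 3 were higher in late torpor than in post-reproduction, by 1.24 to 1.48, with a median of 1.31. miR-425 lay in the opposite direction there, and also in early arousal against post-reproduction, where all 3 were higher (median 0.53). Between the hibernation stages all 3 were lower in early arousal, from -1.30 to -0.71, and so was miR-425 (-0.12) under the scaling of the text. Leukocyte miRNAs summed to 613 in late torpor, 440 in early arousal and 499 in post-reproduction, and the 6 hepatocyte miRNAs to 46904, 41188 and 41556. The 4 endothelial miRNAs summed to 1284, 1174 and 1280 in the same order. The 4 mesenchymal ones summed to 126, 116 and 142, which is the order of the unscaled miR-425 signals. After scaling that order was not kept by the list. Against post-reproduction 2 of the 4 were higher and 2 lower in late torpor (median 0.029), and likewise in early arousal (median 0.024). The scaled hepatocyte miRNAs were higher than in post-reproduction for all 6 in late torpor (median 0.29). In early arousal 5 of the 6 were higher (median 0.15), although their sum before scaling was the lower one. Against post-reproduction, endothelial miR-221 was at -0.23 in late torpor and -0.48 in early arousal. Its cluster partner miR-222 was at -0.42 and -0.71. Both were on the same side as miR-425 and further from 0, but the late torpor gap to miR-221, 0.011 ± 0.03, was within its SE. The other endothelial pair, miR-126-3p and miR-126-5p, was on the opposite side, at 0.35 and 0.27 in late torpor and 0.25 and 0.36 in early arousal. Among the 6 leukocyte miRNAs, miR-146a was the lowest, at -0.27 and -0.49, while 5 were above 0 in late torpor and 2 in early arousal. In late torpor against post-reproduction, all 6 hepatocyte miRNAs lay above miR-425, as did 5 of 6 leukocyte, 2 of 4 endothelial and 4 of 4 mesenchymal ones. In early arousal against post-reproduction, 6 of 6 hepatocyte, 4 of 6 leukocyte, 2 of 4 endothelial and 3 of 4 mesenchymal ones did. Between the hibernation stages it was 3 of 6, 1 of 6, 2 of 4 and 3 of 4, and 0 of 3 red blood cell miRNAs. In pooled tissue, fewer cells of a type and less RNA per cell cannot be told apart, and the part of cell makeup in the values of miR-425 was not tested.

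The 5 miRNAs whose course over the 3 arrays was most like that of miR-425 were taken by the smallest distance between their scaled log2 values, each centred on its own mean. They were miR-185 (distance 0.023), miR-720 (0.041), miR-23a (0.042), miR-199b* (0.066) and miR-331-3p (0.070). The median distance over the other 134 measured miRNAs was 0.36, but these 5 lie under it because they were picked as the smallest. Under the scaling of the text, miR-425 was lowest in early arousal and highest in post-reproduction, an order that 28 of the 135 measured miRNAs had (20.7%), miR-425 included. This order and its count move with the scaling, since the sign between the hibernation stages turned under other scalings. miR-185 had differences of -0.21 ± 0.07 and -0.36 ± 0.05 from post-reproduction in late torpor and early arousal, close to those of miR-425. miR-720 is an entry later reclassified as a tRNA fragment. miR-23a, made with miR-27a in 1 transcript, had -0.26 ± 0.02 and -0.40 ± 0.02. These likenesses rest on 3 points per miRNA, all from the same arrays.

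miR-191 gave no level. Its 20 spots ran from -6.42 to 2.25 in late torpor with a median of -1.01, from -5.51 to 5.84 in early arousal with a median of -0.69, and from -6.94 to 2.96 in post-reproduction with a median of -0.36. The lowest spot well above background on these arrays had 8.49, 10.1 and 10.7 intensity units in the same order, so all miR-191 spots lay under that limit. Most spots were not above 0; those that were numbered 7 of 20 in late torpor, 8 of 20 in early arousal and 9 of 20 in post-reproduction.

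Negative control spots, 672 per array, had medians of 1.69, 1.36 and 1.21 in late torpor, early arousal and post-reproduction. Of these controls 90.8%, 86.9% and 73.5% were brighter than the median miR-191 spot. The 4 miR-191 probes have targets of 12 to 15 bases. The probe with a 12-base target had means of -4.28, -4.56 and -3.58, and that with a 15-base target 0.85, 0.41 and 0.93, again with late torpor first. For the 14-base target they were 0.17, 1.20 and 1.30, so the longest target was not the brightest in early arousal or post-reproduction. None of the 4 probes was detected under strict detection or with outlier spots kept either, and the program's own call for the miRNA was not detected on each array. No fold change is given, since all arrays were below background. These values do not show that miR-191 was missing from the liver, only that the probes did not report it.

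**Figure D3:**
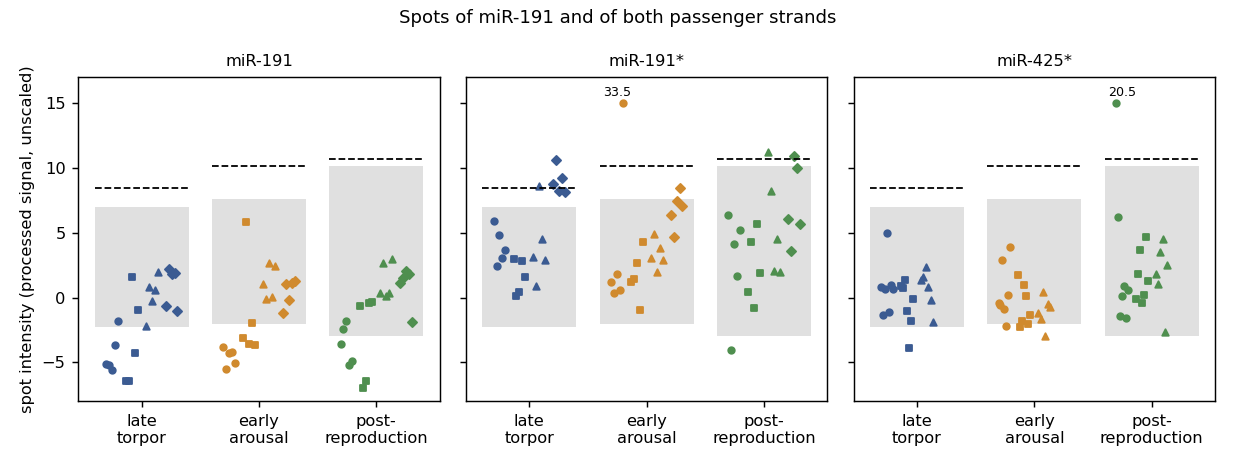
Spot intensity (vertical axis, processed signal before scaling) of miR-191, miR-191* and miR-425* on each array, with a symbol per probe. Grey boxes hold the middle 95% of negative control spots and dashed lines mark the lowest spot well above background; spots flagged as outliers that lie past the axis are written as numbers. No miR-191 spot reaches the dashed line.

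miR-191*, the passenger strand of the same hairpin, was weak but was called detected by the program on all 3 arrays. On its longest probe, with a 21-base target, the 5 spots ran from 8.14 to 10.6 in late torpor, from 4.71 to 8.42 in early arousal and from 3.62 to 10.9 in post-reproduction. The means of that probe were 8.99 ± 1.01, 6.79 ± 1.38 and 7.26 ± 3.09 (SD, n = 5 spots), and each pair of ranges overlapped. By the share of spots well above background, it was detected in late torpor alone (3 of 5 spots), so miR-191* was not measured and has no difference between stages. Over all 4 of its probes, 4 of 20 spots were well above background in late torpor, 1 of 20 in early arousal and 2 of 20 in post-reproduction. The early arousal spot among them, at 33.5, was flagged as an outlier.

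miR-425*, the passenger strand of miR-425, was not detected on any array. Its 20 spots had medians of 0.70 in late torpor, -0.65 in early arousal and 1.16 in post-reproduction, and 17 to 19 of them lay inside the middle 95% of the negative controls. Of the 4 strands of the cluster, then, miR-425 alone was measured.

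miR-191 and miR-425 differ in how they were laid out on the array. miR-425 has 2 probes and miR-191 has 4, with 5 spots each. Among the mouse miRNAs with 2 probes 126 of 287 were measured (43.9%), against 6 of 264 with 4 probes (2.27%). These counts pool mature and star strands, while miR-191 is a mature strand. By length of target, 37 of 560 mouse probes with 12 to 15 bases were detected on all arrays (6.61%), 95 of 528 with 16 to 18 bases (18.0%) and 106 of 471 with 19 or more (22.5%). Of the 129 mouse entries whose targets all had 15 bases or fewer, 17 were measured (13.2%). Without star strands it was 16 of 105 (15.2%). The part of probe layout and target length in the absence of a miR-191 signal was not tested, and 401 of the 567 mouse entries (70.7%) were detected on no array.

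**Figure D4:**
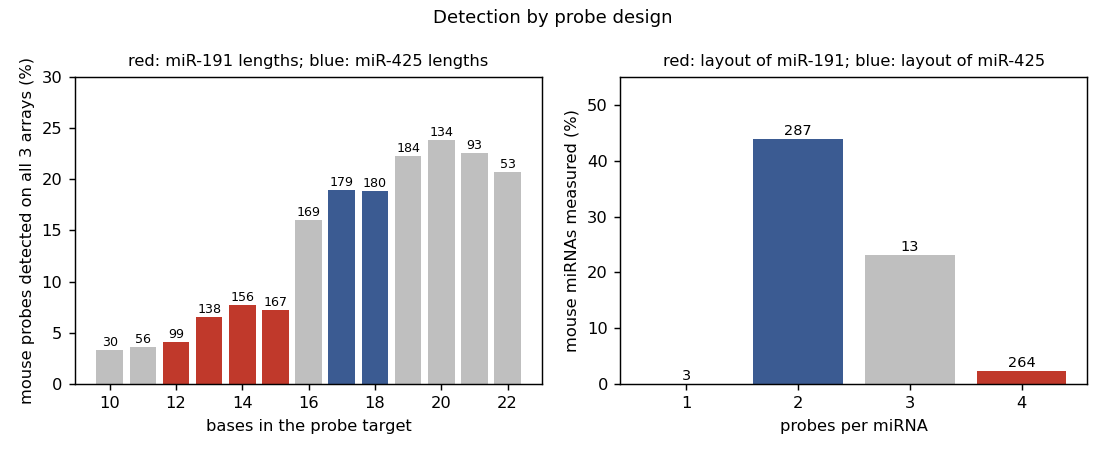
Left, percent of mouse probes detected on all 3 arrays, by bases in the probe target, for lengths with at least 30 probes. Right, percent of mouse miRNAs measured, star strands included, by their number of probes. Numbers over the bars are probes or miRNAs; red marks the lengths and layout of miR-191 (2.27% measured with 4 probes) and blue those of miR-425 (43.9% with 2 probes).

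Other clusters on the array also held measured and undetected miRNAs side by side. Of the measured mouse miRNAs that are not star strands, 54 had a neighbour within 10 kb by the positions in the files, with arms of the same hairpin left out by name and by a spacing under 60 bases, a limit set after seeing the data. For 15 of these 54 (27.8%) no neighbour was measured, miR-425 among them, and for 12 (22.2%) every neighbour was detected on no array, as for miR-425. Only the listed position of an entry was used. Neighbours of any other gene copy of a miRNA were therefore not counted, and the shares may differ with all copies included. In the 30 neighbouring pairs with both miRNAs measured, the median absolute gap between partners was 0.10 in late torpor against post-reproduction, 0.15 in early arousal against post-reproduction and 0.13 between the hibernation stages. No median over pairs that are not neighbours is given beside these, and several pairs share a miRNA. Whether neighbours lie closer together than other measured miRNAs is therefore not shown. The smallest gaps were 0.00087 (miR-23a and miR-27a), 0.0070 (miR-19b and miR-92a) and 0.0066 (miR-24 and miR-27b). The largest were 0.45 (let-7e and miR-99b), 0.42 (miR-199a-5p and miR-214) and 0.59 (miR-144 and miR-451). Such a gap could not be computed for miR-191 and miR-425.

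Within 5 Mb of the cluster on mouse chromosome 9 the array holds 4 other entries by their listed positions, with other gene copies not counted. let-7g, 2.39 Mb away, was measured, with differences of 0.075 ± 0.02 in late torpor and -0.076 ± 0.02 in early arousal against post-reproduction, so it lay nearer 0 than miR-425 in both. Its passenger strand let-7g* and miR-711, 0.401 Mb away, were detected on no array, and miR-135a* was detected on 1.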

How the data were processed

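Liver RNA pools of 3 stages were hybridised to 3 one-colour Agilent mouse miRNA arrays. Per the submitters' processing notes, the scans were quantified in Agilent Feature Extraction, version 9.5.3.1. Each deposited intensity is a spot's signal less a fitted spatial background, with local background subtraction and multiplicative detrending off and nothing done between arrays, per the file headers. Detection and outlier flags are other deposited values of the program. The authors' deposited series table equals these intensities at all 12493 spots of each array (relative tolerance 1e-06), on a linear, uncentred scale with medians of 1.05, 1.15 and 1.13 for early arousal, late torpor and post-reproduction.

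Control spots and 280 to 398 outlier spots per array were left out; 0 miRNA spots were saturated. Spots at or below 0 took the array's lowest intensity well above background before log2, which touched no spot of miR-425. Log2 values were averaged over spots, then over probes detected on all arrays, after scaling. The SE joins the spot variance of both arrays. Precision is limited by the number of arrays; the median SE was 0.03. The difference code was tested on simulated data. normexp was run in limma 3.58.1 and the rest in Python 3.11.15 with pandas 2.3.3. Alternatives were other scalings, normexp, brightest probe, total gene signal, strict detection, kept outliers, spot medians and a 1.5-fold rule.

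Named miRNAs were the members, their star strands, measured entries within 5 Mb, the 5 nearest profiles, the reference list and the neighbouring pairs with the smallest and largest gap. Members of the marker lists are named beside them, as are 3 entries within 5 Mb that were not measured (let-7g*, miR-711 and miR-135a*), which fall outside that rule and were named after their values were seen. Sharing of seeds was part of that rule and was not applied, as no sequences were used here. The members and lists were chosen with earlier results of these data known.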

Additional observations from a re-analysis of the deposited data

How the results depend on the processing

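No paired analysis was possible because each stage has 1 array, and no array could be left out for the same reason. The differences and gaps planned for miR-191 have no value under any alternative, since none of its probes was detected. The early arousal minus post-reproduction difference of miR-425 was below 0 under all 12 alternatives. So was the late torpor minus post-reproduction difference, but with normexp it was within its SE (0.016) of 0. With late torpor first, the values were -0.61 and -0.52 with all probes in the scaling, -0.40 and -0.52 without scaling, -0.33 and -0.43 with the reference scaling, -0.0014 and -0.078 with normexp, -0.12 and -0.27 with normexp without its offset (chosen after seeing the data), -0.45 and -0.60 with strict detection, and -0.51 and -0.60 with the total gene signal. The first was also -0.33 with the median of detected probes and -0.36 after quantile normalization. The rest lay within the 95% spot interval of the value in the text. The early arousal minus late torpor difference turned to 0.085 with all probes in the scaling and 0.028 with the median of detected probes, and was -0.21 with the brightest probe and -0.012 after quantile normalization. Array shifts cannot alter the distance of miR-425 from the median miRNA, -0.35 and -0.40 against post-reproduction, but normexp made it -0.15 and -0.16.

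The number of miRNAs past the rule of size in late torpor against post-reproduction came to 7 (all probes in the scaling; 1 higher and 6 lower), 5 (strict detection; 3 higher and 2 lower) and 1 (normexp; higher), against 3 that were all higher. Without scaling, with the median and with the reference scaling 3 were higher and 1 lower. In early arousal against post-reproduction it was 2 with normexp and 3 without its offset, all higher, against 5 (4 higher and 1 lower), and with all probes in the scaling or no scaling 3 were higher and 3 lower. It was 0 with normexp in early arousal against late torpor, against 4 (2 higher and 2 lower). With a 1.5-fold rule the counts were 21, 17 and 12. miR-425 spots had 21.6 to 87.9 units where the lowest spots well above background had 8.49 to 10.7, and miR-191 lay under that limit.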
